A study of Mus musculus with 35 samples.

Results

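Purinergic and adenosine signalling was examined through 10 of the 32544 genes counted, chosen by name: the ATP-gated channels P2rx7 and P2rx4, the nucleotide receptors P2ry1 and P2ry6, the adenosine receptors Adora1 and Adora2a, the adenosine-clearing kinase Adk, and the cell-surface enzymes Entpd1, Entpd2 and Nt5e. All 10 have a row in the count tables. The libraries came from hippocampi of male C57BL/6JOlaHsd mice, 7 to 9 weeks old, with no engineered allele. The mice received intra-amygdala kainic acid (IAKA), a glutamate receptor agonist that triggers status epilepticus, or PBS. Kainic acid injection was followed by lorazepam to limit the seizures, and in this model recurrent spontaneous seizures are established by 2 weeks. Hippocampi of KA and PBS mice were taken 24 h (acute) or 2 weeks (chronic) after that injection, 1 mouse per library. Mice of both groups were perfused with PBS when they were killed.

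Each hippocampus gave libraries of up to 2 kinds. The m6A libraries hold RNA pulled down with an antibody against N6-methyladenosine (m6A), the commonest internal methyl mark of mRNA, and the input libraries hold total RNA. There were 5 KA and 3 PBS m6A libraries at 24 h and 6 KA and 5 PBS m6A libraries at 2 weeks. The 13 input libraries with at least 100000 counts comprised 3 KA and 1 PBS at 24 h and 6 KA and 3 PBS at 2 weeks. A level in an m6A library depends both on how much of the RNA there is and on how much of it the antibody captures. In such bulk tissue, fewer cells of a type and less RNA per cell cannot be told apart.

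ATP leaves stressed or firing cells and acts as a transmitter outside them. P2X receptors are cation channels opened by ATP, and P2Y receptors are G protein-coupled receptors for nucleotides. P2RX7, studied widely in epilepsy, needs high ATP and triggers interleukin-1β release from microglia, whereas P2RX4 responds to lower ATP and is raised in activated microglia. P2RY1 prefers ADP and P2RY6 prefers UDP, the latter being linked to microglial phagocytosis. Surface enzymes then break ATP down. ENTPD1 (CD39) and ENTPD2 take off terminal phosphates and NT5E (CD73) makes adenosine from AMP. Adenosine acts as a natural anticonvulsant through the inhibitory receptor ADORA1, while ADORA2A is excitatory and is concentrated in the striatum. ADK, mainly astrocytic in the adult brain, removes adenosine by phosphorylating it.

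By position (mm10, the build in the submitters' processing notes, with gene spans from the RefSeq table of GRCm38.p6), P2rx7 at chr5:122643927-122692336 and P2rx4 at chr5:122707518-122729739 lie next to each other on the plus strand. Adora1 lies at chr1:134199215-134235457 on the minus strand, Entpd1 at chr19:40612366-40741602 and Adk at chr14:21052574-21448569. P2ry1 (chr3:61002785-61008982), Entpd2 (chr2:25395874-25401323) and Nt5e (chr9:88327609-88372089) are also on the plus strand, and P2ry6 spans chr7:100937630-100975498 and Adora2a chr10:75316877-75334792. m6A is laid down mostly at a short motif whose commonest form in RNA reads GGACU. This motif was searched as GGACT on the sense strand of the canonical coding sequence of each member in GENCODE release M39, without the untranslated regions. The site nearest the stop codon is shown for 4 members that the results below turn on or that differ in their number of sites, with 12 bases on each side and the motif in capitals.
P2rx7: aagaccccagatGGACTtctccgacctgt
P2rx4: cctcgacactcgGGACTtagaacacaacg
Entpd1: gcaacgcggggtGGACTttgggctacatg
Nt5e: catcagatatctGGACTttttctgccatc
P2rx7 has 1 such site in 1785 coding bases, starting at coding base 1302 in the last of its 13 coding exons. P2rx4 has 4 in 1164 coding bases, the last at base 846 in coding exon 8 of 12. Entpd1 has 3 in 1530 coding bases, the last at base 1349, and Nt5e has 2 in 1728, the last at base 472. P2ry1, Adora2a and Entpd2 have 1 each. P2ry6, Adora1 and Adk have 0. At least 1 site occurs in 72.2% of all 21592 coding sequences, in 85.6% of those within 10% of the length of P2rx7, and in 63.5% of those within 10% of the length of Adora1. The count of letters is a description and shows nothing about methylation.

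Total counts ran from 1652933 to 34564536 per m6A library (median 15291875) and from 3057578 to 12694434 per input library used. All 8 hippocampal marker genes were present in every group, with summed levels of 335 to 1545 CPM in m6A libraries (CPM, counts scaled to a common library total). Markers of the striatum were present too, at 88.4 to 342 CPM in m6A libraries. KA mouse 8 (24 h) stood apart in both assays. Its correlation with the median of the other libraries was 0.780 in input and 0.776 in m6A, against at least 0.898 for all others, and Gfap, an astrocyte gene that rises after injury, was at 166 and 263 CPM against 857 to 2162 in the other KA libraries at 24 h. Mitochondrial genes took 17.4% and 16.4% of its counts, against 1.62% to 8.31% in the other 24 h libraries used. The m6A library of KA mouse 6 (2 weeks) had Gfap at 126 CPM and a mitochondrial share of 17.5%, while the input library of the same mouse had 611 CPM and 4.25%. The part of the mitochondrial share in the values of the members was not tested, and the results that these libraries moved most are given with and without them. The m6A libraries also fall into 3 sets by the number that starts their column names (3, 4 or 5), and these sets are not balanced over the groups. The meaning of the number is not given in the sources used here. Set 4 holds KA mice 79 and 97 and PBS mice 71 and 73 at 24 h. At 2 weeks it holds PBS mice 50 and 78 but no KA mouse. Set 3 holds KA mice only, 8, 67 and 98 at 24 h and 5, 6 and 42 at 2 weeks. Input libraries used whose column names start with Input are also of KA mice only. They are mouse 8 at 24 h and mice 6, 7 and 9 at 2 weeks. In these libraries, set and treatment cannot be told apart.

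No member passed an adjusted p of 0.05 in any of the 4 comparisons of KA with PBS. The 95% intervals below leave room for changes of 1 log2 unit or more in several members, so this is a statement about these numbers of mice and not about equal levels. Differences are log2(KA/PBS) from edgeR, which fitted all genes that passed its filter on low counts, with the standard error (SE). In m6A libraries at 24 h, all 10 members were tested and 7 lay above 0, with a median of 0.35 against 0.08 over all genes. Of the 16470 genes tested 1 was called (0.00607%), Tm4sf1, named here after its value was seen (3.42, SE 0.27, adjusted p = 0.0028). An unadjusted p under 0.05 was reached by 1 of the 10 members and by 875 of all genes. DESeq2 called 156 genes and limma-voom 1120, with 0 members among them. In m6A libraries at 2 weeks, 6 of 9 tested members lay above 0, with a median of 0.28 against -0.00 over all genes. There 0 of 16157 genes were called by edgeR (0%), 15 by DESeq2 and 2 by limma-voom, and 809 genes but 0 members had an unadjusted p under 0.05.

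In input RNA at 24 h, 9 of 10 members lay above 0. Their median was 0.80 against 0.27 over all genes, and 2 members had an unadjusted p under 0.05. edgeR called 0 of 17644 genes (0%), with 1628 at an unadjusted p under 0.05, while DESeq2 called 197 and limma-voom 1076, without a member. Scaling by library size alone moved the median of all genes to -0.04 and put P2ry1 (-0.03) and Adora1 (-0.04) below 0. Without KA mouse 8 the median of all genes was 0.03, and P2ry1 (-0.05) and Nt5e (-0.59) lay below 0. In input RNA at 2 weeks, 5 of 7 tested members lay above 0, with a median of 0.08 against 0.02 over all genes, and 1 had an unadjusted p under 0.05. Here 0 of 13752 genes were called (0%), with 1938 at an unadjusted p under 0.05, and DESeq2 called 116 and limma-voom 342, again without a member.

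**Figure D1:**
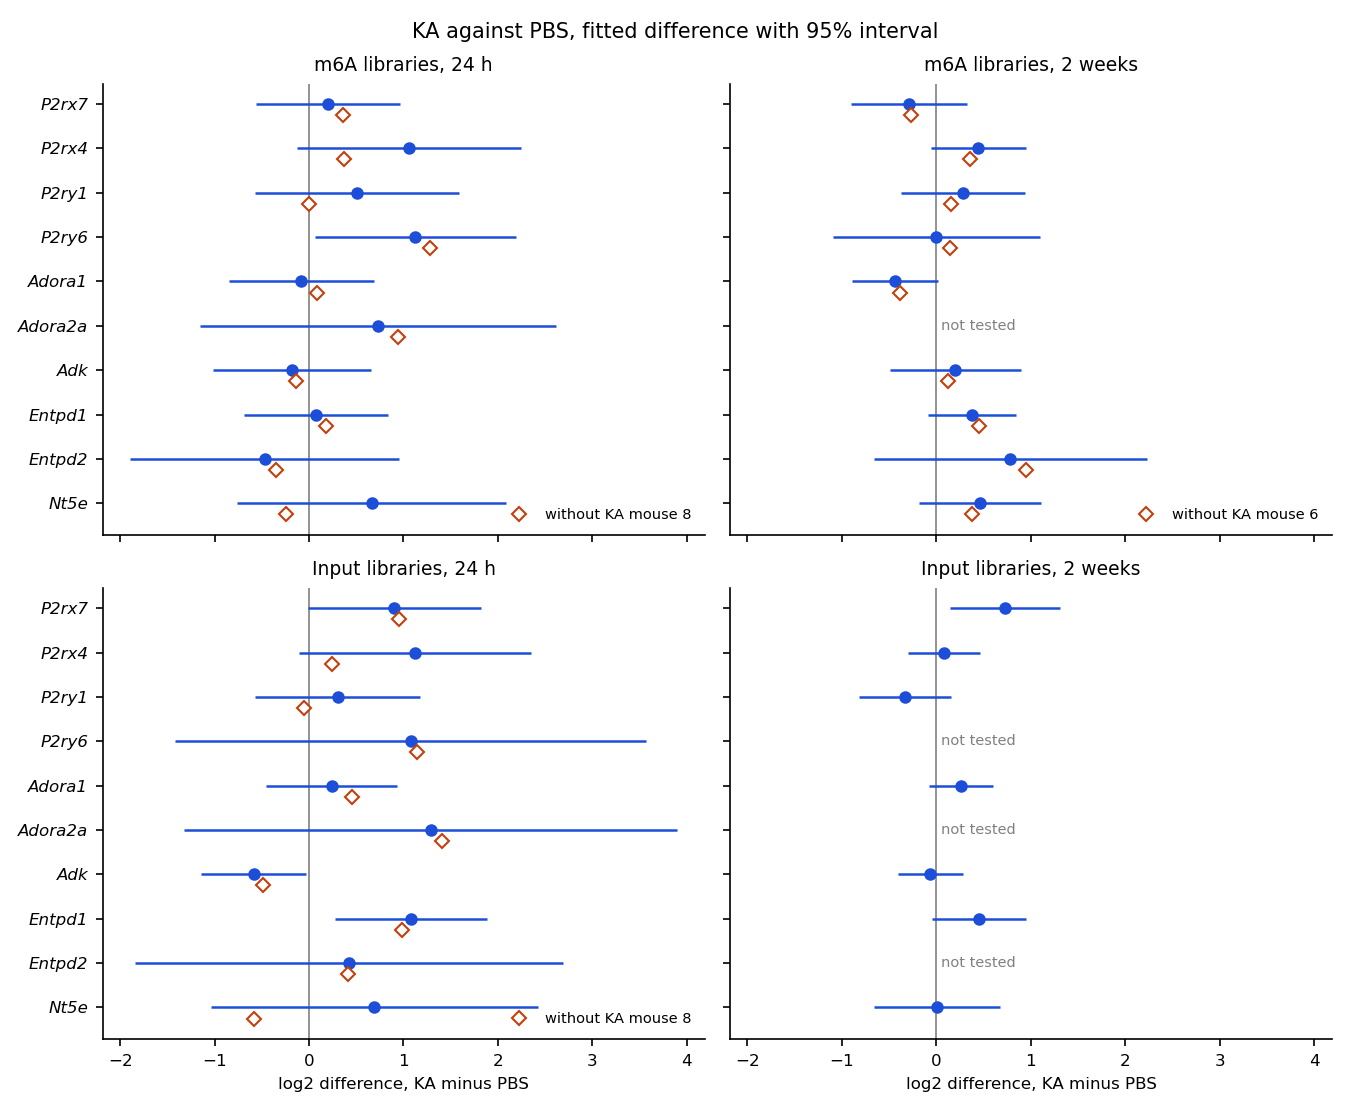
Difference between KA and PBS libraries for each member (x axis, log2 scale, points with 95% intervals from edgeR) in m6A and input RNA at 24 h and 2 weeks. Open diamonds show the fit without KA mouse 8 (24 h) or without the m6A library of KA mouse 6 (2 weeks); the diamonds of P2rx4, P2ry1 and Nt5e at 24 h lie well to the left of the points.

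P2rx7, the ATP-gated channel, had a difference above 0 in input RNA at both times, and neither passed adjustment for multiple testing. At 24 h the input level was 6.15, 8.91 and 6.91 CPM in KA mice 8, 67 and 98 and 4.81 CPM in the single PBS mouse. At 2 weeks it was 8.88, 5.13 and 3.67 CPM in PBS mice 2, 3 and 4, and in the 6 KA mice the lowest was 6.54, the median 8.82 and the highest 12.5 CPM. All KA libraries at 24 h lay above the PBS library, whereas at 2 weeks PBS mouse 2 lay within the KA range and PBS mice 3 and 4 below it. The difference was 0.90 (SE 0.43, unadjusted p = 0.0523, adjusted p = 0.549) at 24 h and 0.73 (SE 0.27, unadjusted p = 0.0187, adjusted p = 0.296) at 2 weeks, in edgeR. Leaving out PBS mouse 4 gave 0.44 at 2 weeks and leaving out PBS mouse 2 gave 1.09. Among the inputs whose names carry no prefix, 3 KA and 3 PBS mice, it was 0.49.

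The m6A libraries gave another picture for P2rx7. At 24 h the level was 5.19, 8.08, 16.4, 13.7 and 9.08 CPM in KA mice 8, 67, 79, 97 and 98 and 7.53, 8.89 and 10.4 CPM in PBS mice 1, 71 and 73. KA mice 79 and 97, both of set 4, were the highest and the groups overlapped. The difference was 0.20 (SE 0.34) and, within set 4, 0.53. At 2 weeks it was 6.48, 5.80, 15.2, 14.2 and 11.6 CPM in PBS mice 2, 3, 4, 50 and 78, and in KA mice the lowest was 6.37, the median 7.60 and the highest 12.6 CPM. PBS mice 4 and 50 lay above all KA libraries, and PBS mouse 78 above all but that of mouse 42. The difference was -0.29 (SE 0.28).

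P2rx4, the channel of activated microglia, was the only member whose KA and PBS m6A libraries did not overlap at 24 h. Of all genes tested there, 3.71% did not overlap either way. The levels were 50.1, 20.2, 17.6, 16.1 and 16.3 CPM in KA mice 8, 67, 79, 97 and 98, against 15.4, 12.1 and 10.4 CPM in PBS mice 1, 71 and 73. KA mouse 8 was far above all other libraries at 24 h, and KA mice 97 and 98 were close to PBS mouse 1. The difference was 1.06 (SE 0.53, adjusted p = 0.983), and 0.37 (SE 0.24, unadjusted p = 0.152) without mouse 8, in edgeR. KA mice 8, 67 and 98 are of set 3, which holds no PBS mouse. In set 4, KA mice 79 and 97 lay above PBS mice 71 and 73. Over all m6A libraries the median was 19.8 CPM in set 3, 14.1 CPM in set 4 and 15.35 CPM in set 5. In input RNA at 24 h the KA levels were 46.3, 17.1 and 14.6 CPM against 15.7 CPM in the PBS mouse. Mouse 8 was again the highest and mouse 98 lay below the PBS mouse, and the difference was 1.12 (SE 0.57) with mouse 8 and 0.24 without it.

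At 2 weeks P2rx4 stood at 15.5, 15.5, 9.12, 12.1 and 17.6 CPM in the m6A libraries of PBS mice 2, 3, 4, 50 and 78, and KA libraries ran from 11.8 through a median of 18.8 to 25.1 CPM. KA mice 5, 6, 7 and 42 lay above all PBS libraries, and KA mice 9 and 21 lay among them. Mice 5, 6 and 42 are of set 3, which holds no PBS mouse. The edgeR difference was 0.44 (SE 0.24, unadjusted p = 0.0802), and 0.26 within set 5. In input RNA the PBS mice were at 17.6, 18.2 and 15.6 CPM and KA mice ran from 14.7 through 16.1 to 25.3 CPM. The difference was 0.08 (SE 0.18).

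**Figure D2:**
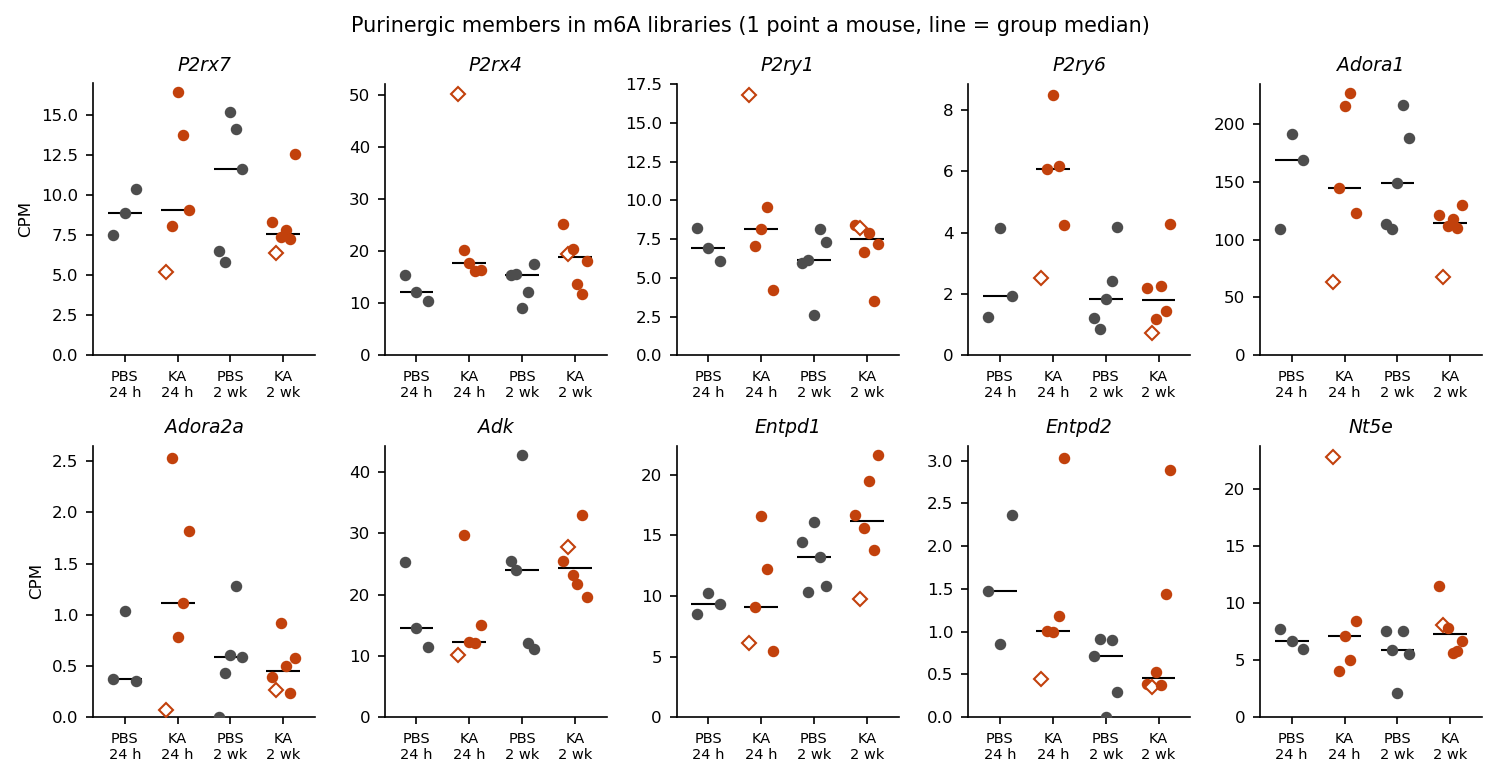
Level of each member in every m6A library (y axis, CPM, linear from 0), by group, with grey points for PBS, orange points for KA and a line at the group median. Open diamonds mark KA mouse 8 (24 h), the highest library for P2rx4, P2ry1 and Nt5e, and KA mouse 6 (2 weeks), the lowest KA library at 2 weeks for Adora1.

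P2ry1, the ADP receptor, differed by 0.51 (SE 0.49) at 24 h and 0.28 (SE 0.31) at 2 weeks in m6A libraries, and by 0.30 (SE 0.41) and -0.33 (SE 0.23) in input. In m6A libraries at 24 h KA mouse 8 stood at 16.8 CPM and the other KA libraries at 4.24 to 9.58 CPM, around the PBS range of 6.08 to 8.19 CPM. Without mouse 8 the difference at 24 h was 0.00 in m6A and -0.05 in input RNA.

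P2ry6, the UDP receptor of microglia, had the largest m6A difference at 24 h among the members, and it was the 1 member with an unadjusted p under 0.05 there. Its levels were 2.52, 6.06, 8.47, 6.16 and 4.24 CPM in KA mice 8, 67, 79, 97 and 98 and 1.26, 4.16 and 1.93 CPM in PBS mice 1, 71 and 73. All KA libraries but that of mouse 8 lay above all PBS libraries. KA mouse 98 was above PBS mouse 71 by less than 1 count, which is 0.605 CPM in its library. The levels of KA mice 98 and 67 rested on 7 and 12 counts. The difference was 1.13 (SE 0.48, 95% interval 0.06 to 2.19, unadjusted p = 0.0403, adjusted p = 0.891) in edgeR. Without mouse 8 it was 1.28 (adjusted p = 0.368), and within set 4 it was 1.13 (adjusted p = 0.146). At 2 weeks the m6A difference was -0.00 (SE 0.51), with PBS libraries at 0.85 to 4.19 CPM and KA libraries at 0.73 to 4.28 CPM. In input RNA P2ry6 had 0 to 18 counts per library, so its difference at 24 h (1.08, SE 1.16) was set by few counts and it was not tested at 2 weeks.

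Adora1, the inhibitory adenosine receptor, had a difference below 0 in m6A libraries at 2 weeks that was not called, and its levels split by library set. The PBS levels were 114, 109, 149, 217 and 188 CPM in mice 2, 3, 4, 50 and 78. KA libraries ran from 68.0 through a median of 115 to 130 CPM. The 2 PBS mice of set 4 and PBS mouse 4 lay above all KA libraries, and PBS mice 2 and 3 lay among them. The difference was -0.44 (SE 0.21, unadjusted p = 0.0577, adjusted p = 0.875) in edgeR over all libraries. It was -0.06 within set 5, where 3 KA and 3 PBS mice can be compared, and -0.08 with the set as a block. Without KA mouse 6, the lowest KA library, it was -0.38 (SE 0.22).

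At 24 h the m6A levels of Adora1 were 63.2, 144, 216, 227 and 123 CPM in KA mice 8, 67, 79, 97 and 98 and 109, 191 and 169 CPM in PBS mice 1, 71 and 73. Here too the set 4 mice (79, 97, 71 and 73) were the highest, whatever the treatment, and KA mouse 8 was the lowest. The difference was -0.08 (SE 0.35), 0.18 within set 4 and 0.08 without mouse 8. In input RNA KA mouse 8 was at 52.5 CPM, KA mice 67 and 98 at 106 and 108 CPM and the PBS mouse at 91.1 CPM. The difference was 0.24 (SE 0.32), and 0.46 without mouse 8. At 2 weeks the PBS inputs were at 98.2, 67.6 and 68.9 CPM and the KA inputs at 77.9 to 107 CPM with a median of 87.2, a difference of 0.26 (SE 0.16, unadjusted p = 0.119).

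Adora2a, the excitatory adenosine receptor, had 0 to 34 counts per library and, of the comparisons of KA with PBS, passed the filter in those at 24 h. Its m6A levels were 0.07, 2.53, 0.78, 1.11 and 1.82 CPM in KA mice 8, 67, 79, 97 and 98, against 0.36 to 1.04 CPM in PBS mice. The groups overlapped, with mice 67 and 98, the shallowest m6A libraries, at the top. The difference was 0.73 (SE 0.85) in m6A and 1.29 (SE 1.22) in input RNA. Striatal markers also lay mostly above 0, 8 of 9 tested in m6A at 24 h (median 0.62) and 8 of 8 in input (median 1.03), with none called. The medians over all genes were 0.08 and 0.27. In m6A at 24 h, choroid plexus (8 of 8, median 1.32), leukocyte (6 of 6, median 1.35) and thalamic markers (6 of 6, median 0.44) lay above 0 too. Hippocampal (2 of 8, median -0.70) and oligodendrocyte markers (2 of 8, median -0.41) mostly lay below 0. The summed level of the striatal markers was 157 to 318 CPM in KA and 130 to 217 CPM in PBS m6A libraries at 24 h. None of the 10 genes was at 0 in all libraries of a group, but Drd2 was at 0 in KA mouse 67. The part of the striatal markers in the Adora2a values was not tested.

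Adk, the enzyme that removes adenosine, was the 1 member below 0 in input RNA at 24 h. It stood at 9.98, 13.6 and 16.1 CPM in KA mice 8, 67 and 98 and at 24.2 CPM in the PBS mouse. The difference was -0.59 (SE 0.26, unadjusted p = 0.0399, adjusted p = 0.517), and -0.48 without mouse 8. At 2 weeks the PBS inputs were at 27.1, 21.1 and 26.7 CPM and the KA inputs at 19.8 to 27.9 CPM (median 23.7). The ranges overlapped almost wholly and the difference was -0.07 (SE 0.16).

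In m6A libraries Adk split by library set. At 2 weeks PBS mice 2, 3 and 4 were at 25.6, 24.1 and 42.7 CPM, PBS mice 50 and 78 of set 4 at 12.1 and 11.2 CPM, and KA mice, none of set 4, at 19.7 to 33.1 CPM. The 2 set 4 libraries were the lowest, and the difference was 0.20 (SE 0.32) over all libraries and -0.17 within set 5. At 24 h KA mice 8, 67, 79, 97 and 98 were at 10.1, 29.8, 12.2, 12.1 and 15.1 CPM and PBS mice 1, 71 and 73 at 25.4, 14.5 and 11.5 CPM. The difference was -0.18 (SE 0.38), with overlapping groups.

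Across all 19 m6A libraries, taken over treatments and times, Adora1 and Adk had different ranges by set. Adora1 was at 169 to 227 CPM in the 6 libraries of set 4 and at 63.2 to 149 CPM in the 13 others. It was the 1 member of 10 whose sets did not overlap, as 4.92% of the 17440 genes tested in m6A libraries did not. Adk was at 11.2 to 14.5 CPM in set 4 and, but for KA mouse 8, at 15.1 to 42.7 CPM in the others. P2rx7 had a median of 12.7 CPM in set 4 and 7.53 CPM in the others, with overlapping ranges. P2ry6 had a median of 4.175 CPM in set 4 and 1.82 CPM in the others, also with overlapping ranges. Its median was 1.255 CPM in set 5, the set of PBS mouse 1 at 24 h.

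Entpd1 (CD39), which starts the breakdown of extracellular ATP, had a difference above 0 in input RNA at both times, neither of them called. At 24 h it stood at 8.47, 8.91 and 7.94 CPM in KA mice 8, 67 and 98 and at 4.96 CPM in the PBS mouse. The 3 KA libraries were close together, KA mouse 8 included, and all above the PBS mouse. The difference was 1.08 (SE 0.38, unadjusted p = 0.0124, adjusted p = 0.418), the smallest adjusted p among members in that comparison, and 0.99 without mouse 8. The KA and PBS inputs at 24 h did not overlap for 4 of 10 members (P2rx7, Adora2a and Entpd1 higher, Adk lower), but with 1 PBS library 44.0% of all genes did not overlap.

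At 2 weeks the Entpd1 input levels were 11.8, 6.56 and 7.87 CPM in PBS mice 2, 3 and 4, and 8.18 CPM at the lowest, 12.1 at the median and 13.7 at the highest in KA mice. PBS mouse 2 lay within the KA range and mice 3 and 4 below it. The difference was 0.45 (SE 0.23, unadjusted p = 0.0723, adjusted p = 0.395). No member separated the groups in input RNA at 2 weeks (0 of 7 tested, against 6.44% of all genes). In m6A libraries at 2 weeks PBS mice 2, 3, 4, 50 and 78 were at 14.5, 10.3, 16.1, 13.3 and 10.8 CPM and KA mice at 9.74 to 21.6 CPM with a median of 16.2. KA mice 42, 9 and 5 lay above all PBS mice and KA mouse 6 below them, a difference of 0.38 (SE 0.21, unadjusted p = 0.100). Here too 0 of 9 members were without overlap, against 0.594% of all genes. At 24 h the m6A difference was 0.07 (SE 0.34), with KA libraries at 5.44 to 16.6 CPM on both sides of the PBS range of 8.49 to 10.2 CPM.

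Entpd2, which favours ATP and leaves ADP, had 0 to 100 counts per library. Its m6A differences were -0.47 (SE 0.64) at 24 h and 0.78 (SE 0.68) at 2 weeks, and its input difference at 24 h was 0.42 (SE 1.06). All 3 intervals covered 0 and both directions.

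Nt5e (CD73), which forms adenosine from AMP, had differences at 24 h that changed sign without KA mouse 8. Its m6A levels were 22.8 CPM in that mouse, 4.04, 7.13, 4.98 and 8.47 CPM in KA mice 67, 79, 97 and 98 and 7.75, 6.70 and 5.94 CPM in PBS mice 1, 71 and 73. The input library of mouse 8 was likewise the highest at 19.2 CPM, with KA mice 67 and 98 at 3.09 and 6.14 CPM and the PBS mouse at 7.88 CPM. The difference was 0.66 (SE 0.64) in m6A and 0.69 (SE 0.80) in input RNA with mouse 8, and -0.25 and -0.59 without it. At 2 weeks it was 0.47 (SE 0.30) in m6A and 0.01 (SE 0.31) in input RNA.

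**Figure D3:**
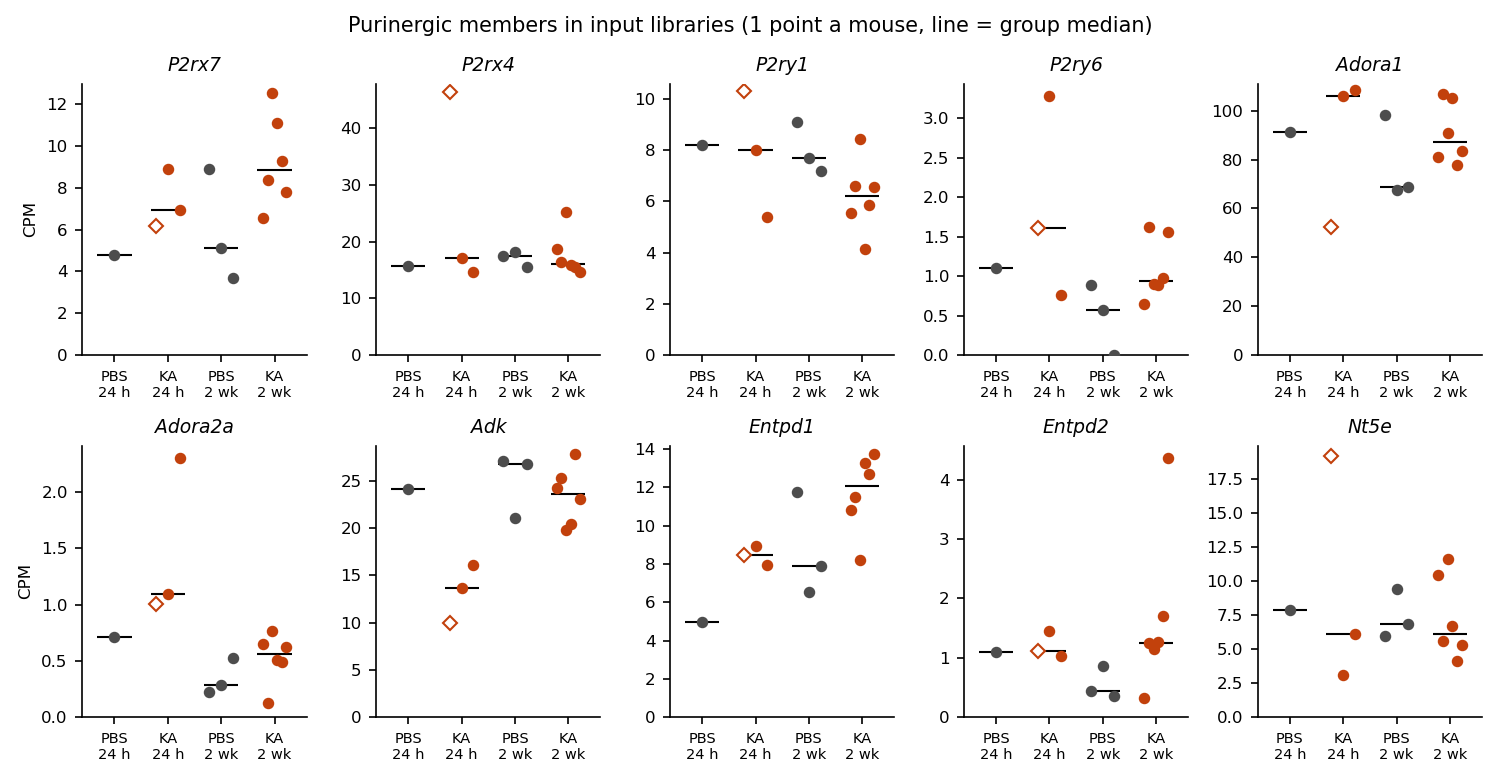
Level of each member in every input library used (y axis, CPM, linear from 0), with grey points for PBS, orange points for KA and a line at the group median. The 24 h PBS group is 1 mouse; KA mouse 8 (open diamond) is the highest library for P2rx4 and Nt5e and the lowest at 24 h for Adora1 and Adk.

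Most microglial markers lay above 0, as did 9 of 10 members in input RNA at 24 h and 5 of 7 at 2 weeks. The count of members at 24 h depended on KA mouse 8, without which P2ry1 (-0.05) and Nt5e (-0.59) lay below 0. Of the 12 markers, 10 lay above 0 in input at 24 h (median 0.90) and 12 at 2 weeks (median 0.89), and 10 and 11 in m6A libraries (medians 0.31 and 0.88), with 0 called by edgeR in any of the 4 comparisons. Their summed level was 149 to 238 CPM in PBS and 234 to 540 CPM in KA inputs at 2 weeks, and 177 to 285 CPM in PBS and 247 to 763 CPM in KA m6A libraries. No marker of the list was at 0 in all libraries of a group. Some other cell types showed this too in input RNA at 24 h. All tested markers lay above 0 for infiltrating leukocytes (7 of 7, median 1.95), blood (5 of 5, median 1.87) and endothelium (8 of 8, median 1.72), with 0 called. Astrocyte (6 of 10, median 0.24) and excitatory neuron markers (6 of 8, median 0.14) were mixed. Inhibitory neuron (1 of 8, median -0.35), oligodendrocyte (2 of 8, median -0.37) and hippocampal markers (2 of 8, median -0.19) mostly lay below 0. In input RNA at 2 weeks, 8 of 10 astrocyte, 7 of 8 endothelial and 7 of 8 oligodendrocyte markers lay above 0. Their medians were 0.50, 0.39 and 0.25. The summed endothelial markers were nevertheless lower in KA inputs (median 642 CPM) than in PBS inputs (median 905 CPM). Hippocampal (median 0.43) and excitatory neuron markers (median 0.55) were above 0 in 6 of 8 each, and inhibitory neuron markers in 5 of 8 (median 0.04). In the 24 h inputs, summed leukocyte markers were at 55.9, 53.3 and 21.8 CPM in KA mice 8, 67 and 98 and 14.3 CPM in the PBS mouse. Summed endothelial markers were at 1221, 892 and 476 CPM in these KA mice and 909 CPM in the PBS mouse. Only KA mouse 8 lay above the PBS mouse there. Among KA inputs at 24 h, mouse 8 had the lowest microglial sum (150 CPM, against 297 CPM in both others), the highest leukocyte sum and the highest P2rx4 level. Mouse 67 had a leukocyte sum close to that of mouse 8, with P2rx4 at 17.1 CPM against 46.3 CPM in mouse 8. Mouse 8 also had the lowest astrocyte (918 CPM), excitatory neuron (825 CPM), oligodendrocyte (751.5 CPM), hippocampal (381 CPM) and choroid plexus sums (89.4 CPM). Its endothelial (1221 CPM) and blood sums (38.7 CPM) were the highest. In m6A libraries at 24 h its leukocyte sum was also the highest, at 70.0 CPM against 17.8 to 49.0 CPM in the other KA mice. The part of these markers in the members' differences was not tested.

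The change of the KA difference from 24 h to 2 weeks was tested as an interaction in each assay, and no member passed. In m6A libraries 3 of 10 interactions lay above 0 with a median of -0.29, and 1 of 17440 genes was called (0.00573%), again Tm4sf1. P2ry6 (-1.14), P2rx4 (-0.61) and Entpd2 (1.27) had the largest shifts among the tested members with Adora2a (-0.98), all with an adjusted p of 1.00. Most of these shifts did not keep their sign: limma-voom gave 1.24 for Adora2a and -0.49 for Entpd2, and P2rx4 was 0.092 without KA mouse 8. Without KA mice 8 and 6, P2ry1 and Nt5e turned to 0.15 and 0.61. In input RNA 4 of 10 lay above 0 with a median of -0.42, and 0 of 17644 genes were called by edgeR (0%), 9 by DESeq2, with 543 genes and 0 members at an unadjusted p under 0.05.

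The ratio of m6A to input level was compared within 2 weeks, where PBS mice were sequenced deeply in both assays (5 m6A and 3 input libraries). Adora1 had the smallest p among the members, its level being higher in m6A libraries by 0.76 (SE 0.23, 95% interval 0.29 to 1.24, unadjusted p = 0.00291, adjusted p = 0.0768). This was just short of the threshold, which edgeR passed for 373 of 16141 genes (2.31%), 191 higher and 182 lower. In PBS mice 2, 3 and 4, which have both assays, the m6A levels of 109 to 149 CPM lay above the input levels of 67.6 to 98.2 CPM. The highest m6A levels (217 and 188 CPM) were those of PBS mice 50 and 78, which are of set 4 and have no labelled input library. With each mouse as a block the ratio was 0.43 (adjusted p = 0.295), and DESeq2 gave 0.75 (adjusted p = 0.0280). Scaling by library size alone, which moved the median ratio of all genes from 0.07 to 0.31, gave 0.99 (adjusted p = 0.0224).

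P2rx4 was lower in m6A than in input libraries by 0.53 (SE 0.24, unadjusted p = 0.0419, adjusted p = 0.234), P2ry6 was higher by 1.97 (SE 0.79, adjusted p = 0.170) and P2rx7 by 0.63 (SE 0.34). The ratio was -0.62 (SE 0.32) for P2ry1, -0.59 (SE 0.36) for Nt5e, -0.35 (SE 0.32) for Adk, 0.34 (SE 0.25) for Entpd1 and -0.01 (SE 1.16) for Entpd2. Of 9 members 4 lay above 0 and 3 had an unadjusted p under 0.05, as did 3200 of all 16141 genes. P2ry6 rested on 0 to 4 counts in the PBS inputs.

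Whether KA changed this ratio at 2 weeks was tested as an interaction of treatment with assay. P2rx7 (-1.001, SE 0.43, unadjusted p = 0.0284) and Adora1 (-0.70, SE 0.28, unadjusted p = 0.0218) had the smallest p among the members, both with an adjusted p of 0.807. None of 16141 genes was called by edgeR (0%), 4 were by DESeq2, and 655 had an unadjusted p under 0.05. With each mouse as a block the values were -0.71 for P2rx7 and -0.37 for Adora1. The PBS m6A arm of both genes includes the set 4 mice 50 and 78, and no KA library at 2 weeks is of that set. Within set 5 the m6A difference between KA and PBS was -0.20 for P2rx7 and -0.06 for Adora1, and the part of the set in the change of the ratio was not tested.

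**Figure D4:**
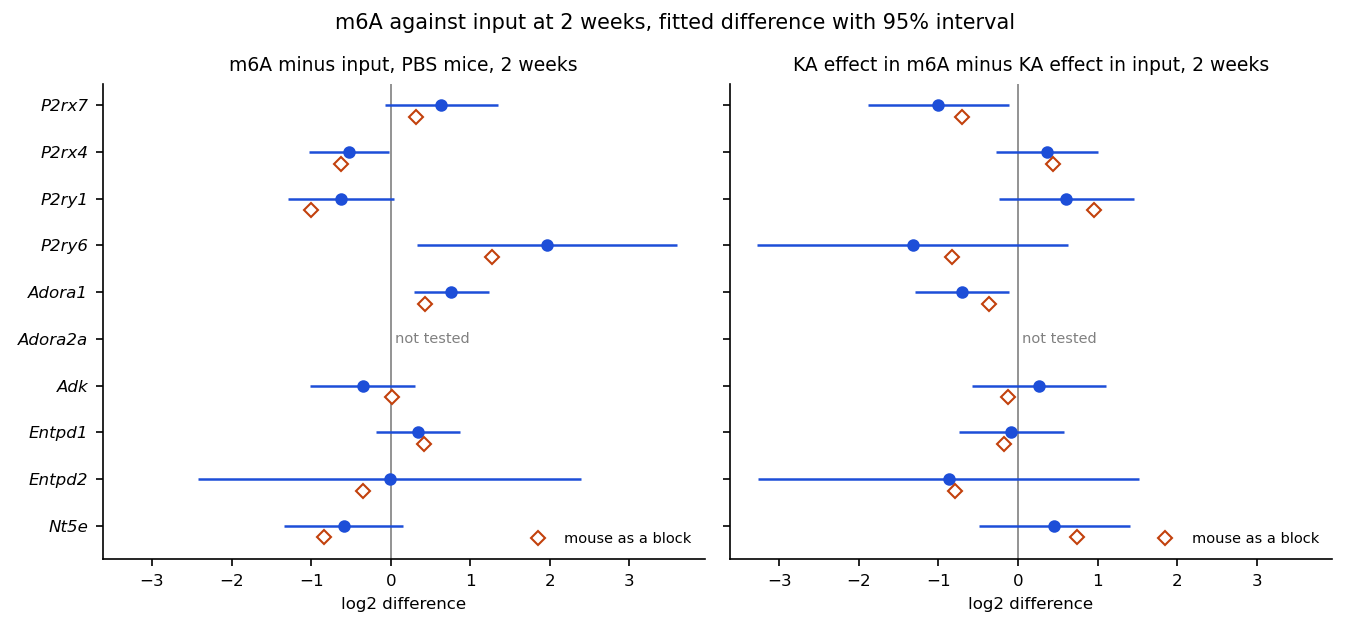
Ratio of m6A to input level in PBS mice at 2 weeks (left, log2, 95% interval) and its change with KA (right, log2, 95% interval) for the members tested, with open diamonds for the fit with each mouse as a block. In the fit without the block the intervals of Adora1 and P2ry6 lie above 0 and that of P2rx4 below it, and P2rx7 and Adora1 lie below 0 on the right.

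The other genes of the pathway gave no call between KA and PBS. Of 43 listed and present in the tables (other P2X, P2Y and adenosine receptors, nucleotide-hydrolysing enzymes, ATP release channels, and adenosine uptake and metabolism), 36 and 34 were tested in m6A libraries and 33 and 27 in input at 24 h and 2 weeks. None was called in either direction by edgeR, and 24, 20, 26 and 17 lay above 0, with medians of 0.33, 0.07, 0.33 and 0.08. Named after its values were seen, P2ry12, the ADP receptor of resting microglia, differed by -1.30 (SE 0.31, unadjusted p = 0.00165, adjusted p = 0.323) in m6A libraries at 24 h and by 0.06 (SE 0.30) at 2 weeks. In input RNA at 24 h it was also lower, at 2.9 to 7.7 CPM in KA mice and 11.4 CPM in the single PBS mouse. There 44.0% of all genes did not overlap. Panx2, a pannexin, differed by -0.95 (SE 0.28, adjusted p = 0.875) in m6A libraries at 2 weeks and by -0.03 (SE 0.25) in input. Its m6A levels at 2 weeks were 32.5 to 90.4 CPM in PBS and 14.8 to 43.95 CPM in KA mice. Only the PBS group there includes set 4 mice (50 and 78), and the part of the set in this difference was not tested. In the ratio of m6A to input 1 of 34 was called. This was Lrrc8a, the essential subunit of the volume-regulated anion channel, also named after its value was seen, which was lower in m6A libraries by 1.61 (SE 0.23, adjusted p = 0.000789).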

How the data were processed

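Total RNA of each hippocampus was extracted with Trizol, m6A RNA was immunoprecipitated from it, and libraries were made with a stranded total RNA kit, per the labels. The deposited values are raw read counts per gene symbol and sequencing lane, made by the authors without normalization. mm10 is the build in the submitters' processing notes. How reads were aligned and counted, and whether strand was used, is "not given in the sources used here". Reads of overlapping or near-identical genes may be shared. Counts of 4 lanes were summed per library (140 columns, 35 libraries), and 8 columns that match no labelled sample were left out. The column names the assay for 8 libraries. For the other 27 a numeric prefix was read as m6A and none as input, because for mice with a named input the other library carries the prefix. Input libraries under 100000 counts (3, all at 24 h) were left out of the main fits.

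CPM is the count divided by the library total, without further scaling. Differences were tested on counts with the robust quasi-likelihood test of edgeR 4.0.16 (R 4.3.3), after TMM scaling and filterByExpr, over all genes that passed the filter, with Benjamini-Hochberg adjustment over them and a threshold of 0.05. For m6A only the groups compared entered, and the 24 h input fit used all 13 deep inputs, since 1 PBS input alone gives no spread. The SE is the absolute log2 difference divided by the square root of F, and intervals use the t distribution. DESeq2 1.42.0 and limma 3.58.1 (voom with quality weights), library size alone, no filter, sets and mice as blocks, other groupings and each library left out were tried as alternatives. Figures were drawn with Python 3.11.15 and matplotlib 3.10.9. The scripts were tested on simulated data. With a count of 0, up to 3 counts of the library total remain possible, by counting error alone.

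Named genes are all 10 members and any other pathway gene past the threshold in a comparison of KA with PBS. Other genes named were chosen after their values were seen, as stated beside them. The members and lists were chosen with earlier results of these data known. An m6A and an input library with the same mouse number come from the same mouse per the labels, so the numbers pair them. Deviations from the group means, over all genes, correlated between the 2 assays at 0.140 to 0.875 in KA mice and at -0.0587, 0.188 and -0.0129 in PBS mice 2, 3 and 4.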

Additional observations from a re-analysis of the deposited data

Results flagged for a closer look

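In 9 of 40 member and group combinations with 4 to 10 libraries, 1 library stood far from the others by Dixon's 95% criterion, which chance gives in about 1 in 20. KA mouse 8, whose libraries stood apart over all genes, gave the highest m6A level at 24 h for P2rx4 (50.1 CPM, the next 20.2) and Nt5e (22.8 CPM, the next 8.47). In the same group Adk was highest in KA mouse 67 (29.8 CPM, the next 15.1) and Entpd2 in KA mouse 98 (3.02 CPM, the next 1.19), both shallow libraries. In m6A libraries of KA mice at 2 weeks, P2rx7 was highest in mouse 42 (12.6 CPM, the next 8.33), P2ry1 lowest in mouse 21 (3.49 CPM, the next 6.67) and Adora1 lowest in mouse 6 (68.0 CPM, the next 110 CPM). In input RNA of KA mice at 2 weeks, P2rx4 was highest in mouse 7 (25.3 CPM, the next 18.6) and Entpd2 in mouse 42 (4.37 CPM, the next 1.71).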

How the results depend on the processing

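Of 170 alternative counts of members past the threshold, 165 were 0 and 5 were 1, always Adora1 in the ratio of m6A to input. It passed with DESeq2 (1 member), with library size alone (1 member), and without the m6A library of PBS mouse 2 (0.86), PBS mouse 3 (0.87) or KA mouse 6 (0.76), so that leaving out 1 library at a time gave 0 to 1 members. Of 1557 member differences, 84 took the opposite sign, over 30 of 74 results, none past the threshold. The causes were not tested. Leaving out PBS mouse 1 in input RNA at 24 h gives no value, since no deep PBS input remains. Few libraries per group, the single PBS input at 24 h and low counts of Adora2a, Entpd2 and P2ry6 limit what could be seen.

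With voom, log2 differences turned to 0.18 (Entpd2) and -0.19 (Nt5e) in m6A at 24 h, 0.12 (P2rx7), 0.38 (P2ry6) and -0.32 (Entpd2) in m6A at 2 weeks, -0.033 (P2ry1) and -0.50 (Nt5e) in input at 24 h, 1.24 (Adora2a), -0.49 (Entpd2) and 0.53 (Nt5e) in the m6A time interaction, -0.10 (Adora1) and 0.53 (Nt5e) in the input time interaction, and 0.19 (Entpd2) in m6A over input. Library size alone gave -0.028 (P2ry1) and -0.038 (Adora1) in input at 24 h, 0.075 (P2rx7) in the input time interaction and 0.23 (Entpd2) in m6A over input. Without the filter Entpd1 was -0.018 in m6A at 24 h and Entpd2 0.040 in m6A over input. DESeq2 gave -0.0016 and all 4 input groups in 1 fit -0.013 for Nt5e in input at 2 weeks, and all 16 labelled inputs gave -0.20 for Adora1 in the input time interaction.

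The library set as a block, or the comparison within 1 set (added after seeing the data), gave Adora1 0.18 (both) and Nt5e -0.18 and -0.17 in m6A at 24 h, P2ry6 0.43 and 0.45 and Adk -0.19 and -0.17 in m6A at 2 weeks, and P2rx4 -0.028 and -0.024, Adk 0.047 and 0.050 and Nt5e -0.13 and -0.13 in input at 2 weeks. With the mouse as a replicate block, over 9 mice with both assays, Adk was 0.022 in m6A over input and -0.12 in the interaction of treatment with assay. Members called stayed at 0 in both, and genes called went from 373 to 265 and from 0 to 1. This pairing changed no other call.

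Leaving out 1 library at a time gave these ranges where a sign turned. In m6A at 24 h they were -0.036 to 0.36 (P2rx7), -0.28 to 0.081 (Adora1), -0.48 to 0.22 (Adk), -0.20 to 0.18 (Entpd1), -0.88 to 0.034 (Entpd2) and -0.25 to 0.82 (Nt5e). In m6A at 2 weeks P2ry6 ran from -0.37 to 0.42. In input they were -0.051 to 0.53 (P2ry1) and -0.59 to 1.13 (Nt5e) at 24 h, and -0.0251 to 0.18 (P2rx4) and -0.17 to 0.25 (Nt5e) at 2 weeks. In the m6A time interaction they were -0.79 to 0.092 (P2rx4), -0.37 to 0.30 (P2ry1), -0.012 to 0.78 (Adk) and -0.35 to 0.73 (Nt5e), with 0.15 (P2ry1) and 0.61 (Nt5e) without KA mice 8 and 6. In the input time interaction they were -0.45 to 0.20 (P2rx7), -0.20 to 0.18 (Adora1), -1.14 to 0.59 (Nt5e) and -0.45 to 1.02 (P2ry6). In m6A over input Entpd2 ran from -0.29 to 0.46, and in the interaction of treatment with assay Entpd1 ran from -0.30 to 0.049, with 0.0021 without the m6A library of KA mouse 6.

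Over all genes, called genes differed from the main counts by more than 1.5 times in several settings. In m6A at 24 h there were 156 (DESeq2), 1120 (voom), 22 (no filter), 3 (library size alone), 31 (all 4 groups), 0 (set as a block), 356 (within set 4) and 0 to 45 with 1 library left out, 45 without KA mouse 8. In m6A at 2 weeks there were 15 (DESeq2), 2 (voom), 2 (no filter) and 1 (all 4 groups). In input at 24 h there were 197, 1076, 3 and 1 (DESeq2, voom, no filter, library size alone), 2 (set as a block), 75 (all 7 labelled libraries) and 180 without KA mouse 8, and in input at 2 weeks 116, 342 and 4 (DESeq2, voom, no filter). The time interactions gave 5, 62 and 2 (DESeq2, voom, block) in m6A and 9 and 1 (DESeq2, all 16 labelled) in input. The ratio of m6A to input gave 900, 2023, 1036 and 244 (DESeq2, voom, library size alone, no filter) and 53 to 676 with 1 library left out, and its interaction with treatment gave 4 (DESeq2).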
